A study of Homo sapiens with 12 samples.

Results

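NADPH oxidases are membrane enzymes that pass electrons from NADPH to oxygen and so make superoxide or hydrogen peroxide. In the gut epithelium the main ones are NOX1, which works with the membrane protein CYBA, the organizer NOXO1 and the activator NOXA1, and the dual oxidases DUOX1 and DUOX2, which need a maturation factor such as DUOXA2 to leave the endoplasmic reticulum. GPX2 is the gastrointestinal glutathione peroxidase, a selenium enzyme of epithelial cells that reduces hydrogen peroxide and lipid hydroperoxides with glutathione. These 8 genes, of 48162 in the deposited count table, were chosen by name, from results of the 4 groups already known. Their levels and fold changes below are therefore a description, with no test.

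The cells were of the established human line Caco-2, from a colorectal adenocarcinoma, which forms enterocyte-like monolayers and spheroids. At passage 26 they were embedded in Matrigel, a basement membrane gel, and grown for 5 days with 20% fetal bovine serum so that spheroids formed. The spheroids were then exposed for 4 h to methotrexate, a folate antagonist that blocks dihydrofolate reductase, to lactoferrin, an iron-binding milk glycoprotein, to methotrexate plus lactoferrin, or to the carrier fluid alone as the control. Total RNA was sequenced from 3 samples in each of the 4 groups, all from this 1 line. The sources used here give neither the doses nor whether the 3 samples of a group were separate cultures. The p-values therefore set each difference only against the spread of these samples, and that spread may be technical.

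The libraries held between 47459811 and 60591667 counts in the methotrexate group, against 18714054 to 19994882 with lactoferrin, 19644459 to 22710347 with both agents and 19892094 to 23859094 in the control. The methotrexate libraries stood apart in content too. The summed level of 10 adipocyte markers was 18900 to 19600 CPM (counts scaled to the size of the library) with methotrexate, 47.5 to 52 CPM with lactoferrin, 43.8 to 51.4 CPM with both agents and 50.4 to 53.2 CPM in the control, and all 10 rose with methotrexate. Of 12 fibroblast markers 11 rose and 1 fell, with sums of 9360 to 10700 CPM with methotrexate and 932 to 1040 CPM in the control. All 12 enterocyte markers fell with TMM normalization, with sums of 3510 to 3770 CPM with methotrexate and 7820 to 8230 CPM in the control. Phagocyte markers, which would come with the phagocyte oxidase, summed to 45.1 to 53.4 CPM with methotrexate and 45.4 to 49.5 CPM in the control, but they moved apart: of 15 listed 4 were tested, and 2 rose and 2 fell with TMM. CD14 had 29.3 CPM with methotrexate and 13.5 CPM in the control, while LYZ, also a marker of secretory cells, had 7.48 CPM with methotrexate and 17.3 CPM in the control. CSF1R had 9.72 CPM with methotrexate and 16.4 CPM in the control, and the scarce C1QA had 80 counts with methotrexate and 1 in the control. MPO, FCGR3A and SPI1 had 33, 30 and 17 counts with methotrexate and 0 each in the control, and CD68 and FCGR3B were at 0 in every library. The share of mitochondrial genes was also high with methotrexate, at 6.67% to 7.54%, against 2% to 3.34% elsewhere. The part of these differences in the results below was not tested, and in bulk RNA fewer epithelial cells and less RNA per cell cannot be told apart. For this reason levels are given with TMM and, beside it, scaled to 45 brush border and junction genes of the epithelium (epithelial scaling).

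Of the 8 genes, 6 passed the filter on low counts, and DUOXA2 and NOXO1 did not. Per kilobase of gene length, CYBA stood far above the rest in the control spheroids, at 401 CPM per kb. GPX2 followed at 34.4, NOX1 at 4.6, NOXA1 at 2.33, DUOX2 at 0.669, DUOXA2 at 0.221, DUOX1 at 0.114 and NOXO1 at 0.0347 CPM per kb. On that scale CYBA lay above 99.3% of the 16733 tested genes, GPX2 above 88.1%, NOX1 above 50.9% and DUOX2 above 24%. The membrane partner of the oxidases was thus among the most abundant messages of the line, while the organizer NOXO1 had 8 counts in all 12 libraries together.

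NOX1, the superoxide-making oxidase of colonic epithelium, lies on the X chromosome at chrX:100098313-100129334 on the minus strand (ENSG00000007952, build hg19). It had 6.93, 6.24 and 4.57 CPM with methotrexate, 10.6, 10.9 and 10.8 CPM with lactoferrin, 11.9, 11.5 and 11.8 CPM with both agents, and 12.5, 10.8 and 11.6 CPM in the control. The 3 methotrexate libraries were the lowest of the 12 and overlapped no other group, while both the lactoferrin group and the group with both agents overlapped the control but not each other. The log2 fold change of methotrexate against control was -0.98 ± 0.15 (SE, 3 libraries each), with a 95% interval of -1.29 to -0.67, so that the methotrexate level was 50.8% of the control. With epithelial scaling the difference was -0.06 ± 0.15 (SE), and the scaled levels overlapped, at 9.43 CPM on average with methotrexate and 9.82 CPM in the control.

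DUOX2, the dual oxidase of the gut surface, and its maturation factor DUOXA2 stand head to head on chromosome 15 (hg19, DUOX2 at chr15:45384848-45406542 on the minus strand, ENSG00000140279, and DUOXA2 at chr15:45406519-45410619 on the plus strand, ENSG00000140274). DUOX2 had 2.22, 1.61 and 1.43 CPM with methotrexate, 3.7, 2.9 and 3.35 CPM with lactoferrin, 3.57, 3.35 and 5.8 CPM with both agents, and 4.22, 4.62 and 4.48 CPM in the control. The methotrexate libraries were again the lowest and overlapped no other group, the lactoferrin libraries were all below the control libraries, and the libraries with both agents spanned the control. Methotrexate against control was -1.35 ± 0.23 (log2, SE), with a 95% interval of -1.84 to -0.86, or 39.3% of the control level. With epithelial scaling it was -0.43 ± 0.22, and the scaled levels still did not overlap, at 2.34 to 3.47 CPM with methotrexate and 3.58 to 3.9 CPM in the control.

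DUOXA2 was close to the limit of counting. It had 15, 8 and 9 counts with methotrexate, 10, 13 and 4 counts with lactoferrin, 10, 5 and 7 counts with both agents, and 8, 10 and 9 counts in the control, from libraries of unequal depth. Normalized, this was 0.235 ± 0.118 CPM with methotrexate, 0.441 ± 0.221 CPM with lactoferrin, 0.329 ± 0.0915 CPM with both agents and 0.389 ± 0.0116 CPM in the control (SD, n = 3 each). All groups overlapped except that the methotrexate libraries were all below the control libraries. It overlaps DUOX2 by 24 bases and DUOXA1 by 1051 bases, both on the opposite strand. The sources used here do not state whether counting used strand, so reads in such stretches cannot be told apart.

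DUOX1, the paralog that lies beside this pair (chr15:45422131-45457774, plus strand, ENSG00000137857, hg19), was not lower with methotrexate. It had 0.814, 0.718 and 0.734 CPM with methotrexate, 0.914, 0.737 and 0.964 CPM with lactoferrin, 0.382, 0.922 and 0.593 CPM with both agents, and 0.719, 0.643 and 0.592 CPM in the control, from 9 to 37 counts per library. The lactoferrin libraries were all above the control ones and the other groups overlapped the control. Methotrexate against control was 0.21 ± 0.32 with TMM and 1.13 ± 0.33 with epithelial scaling (log2, SE). DUOX1 and DUOX2 are close in sequence, and the sources used here do not state how reads that match both were counted.

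**Figure D1:**
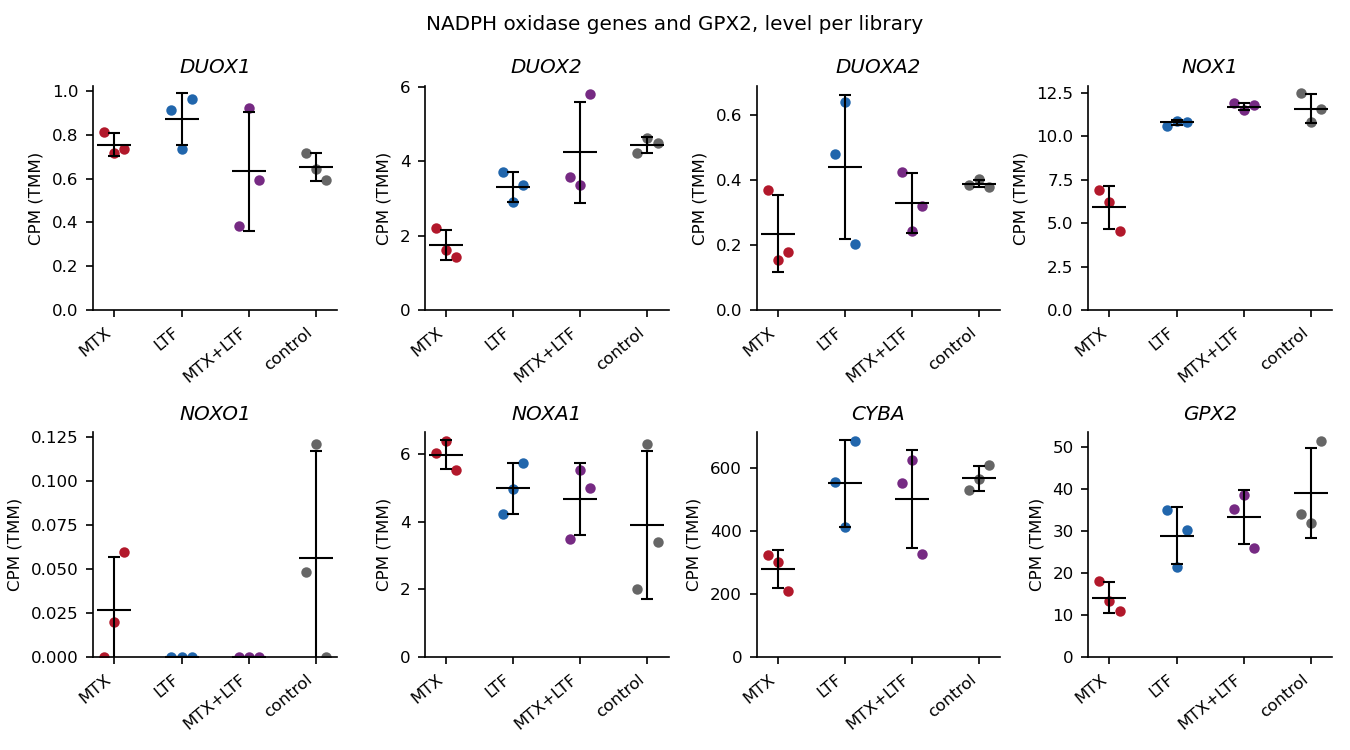
Level of each gene in CPM (TMM, linear axis from 0, own scale per gene) in every library, with methotrexate (MTX), lactoferrin (LTF), both agents (MTX+LTF) and control side by side; points are libraries and bars the mean ± SD of 3. The methotrexate libraries are the lowest of all for NOX1, DUOX2, CYBA and GPX2, not for DUOX1 or NOXA1, and NOXO1 has counts in only 4 of 12 libraries.

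CYBA, the p22phox subunit that NOX1 and several other oxidases need in the membrane, lies on chromosome 16 (chr16:88709691-88717560, minus strand, ENSG00000051523, hg19). It had 322, 300 and 208 CPM with methotrexate, 554, 411 and 686 CPM with lactoferrin, 552, 624 and 326 CPM with both agents, and 529, 565 and 608 CPM in the control. The methotrexate libraries were below all others, though the first of them (322 CPM) was only just below the third library with both agents (326 CPM), and the 3 other groups overlapped. Methotrexate against control was -1.03 ± 0.22 (log2, SE), with a 95% interval of -1.5 to -0.57, or 48.8% of the control level. With epithelial scaling it was -0.12 ± 0.22 and the levels overlapped, at 442 CPM on average with methotrexate and 479 CPM in the control.

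NOX1 also needs partners from the cytosol. NOXA1, the activator, lies at chr9:140317802-140328858 on the plus strand (ENSG00000188747, hg19). It had 6.02, 6.38 and 5.54 CPM with methotrexate, 4.23, 4.96 and 5.73 CPM with lactoferrin, 3.48, 5.53 and 4.98 CPM with both agents, and 2.01, 6.31 and 3.38 CPM in the control. The control libraries spanned a wider range than any other group, and the methotrexate libraries lay at its upper end. Methotrexate against control was 0.60 ± 0.29 (log2, SE; 95% interval -0.01 to 1.21), and this value was 1.13 without control library 2 and 0.29 without control library 1. With epithelial scaling it was 1.52 ± 0.3, and the scaled levels did not overlap, at 9.06 to 10.2 CPM with methotrexate and 1.71 to 5.33 CPM in the control. NOXA1 overlaps ENTPD8, which lies on the other strand, by 43 bases.

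NOXO1, the organizer (chr16:2028918-2034193, minus strand, ENSG00000196408, hg19), had 4 counts with methotrexate, 0 with lactoferrin, 0 with both agents and 4 in the control, each summed over 3 libraries. That is 0.0242 CPM with methotrexate (exact Poisson 95% interval 0.0066 to 0.062, for counting error only) and 0.0596 CPM in the control (0.0162 to 0.153). A count of 0 allows up to 0.0521 CPM with lactoferrin and 0.0479 CPM with both agents, taking 3 counts of the group's total, and the exact Poisson 95% upper limits are 0.0641 CPM with lactoferrin and 0.0589 CPM with both agents. No difference between groups was detectable at this depth. NOXO1 shares 4017 bases with TBL3 on the opposite strand, which had 21636 counts.

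GPX2 lies on chromosome 14 (chr14:65405870-65409531, minus strand, ENSG00000176153, hg19) and showed the lowest methotrexate level, relative to its control, of the 6 genes that passed the filter. It had 18, 13.2 and 10.9 CPM with methotrexate, 34.9, 21.4 and 30.1 CPM with lactoferrin, 35.3, 38.6 and 26 CPM with both agents, and 33.9, 31.9 and 51.4 CPM in the control. The methotrexate libraries overlapped no other group and the other 3 groups overlapped one another. Methotrexate against control was -1.48 ± 0.23 (log2, SE), with a 95% interval of -1.96 to -1, or 35.9% of the control level. With epithelial scaling it was -0.56 ± 0.22, and the scaled levels overlapped, at 17.9 to 28.2 CPM with methotrexate and 26.9 to 43.1 CPM in the control.

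The whole GPX2 gene, 3662 bases with 8630 counts in all libraries, lies inside CHURC1 on the opposite strand, which had 10037 counts. CHURC1 averaged 32.5 ± 0.714 CPM with methotrexate, 26.1 ± 4.4 CPM with lactoferrin, 30.5 ± 6.38 CPM with both agents and 25.9 ± 1.92 CPM in the control (SD, n = 3 each). It did not pass the test between methotrexate and control (log2 fold change 0.33 ± 0.15, adjusted p = 0.0598 by edgeR's quasi-likelihood test). Its mean was higher with methotrexate than in the control, and that of GPX2 was lower. Within groups, the library with the most CHURC1 had the least GPX2 with methotrexate (33.3 and 10.9 CPM), lactoferrin (30.4 and 21.4 CPM) and both agents (36.5 and 26 CPM). In the control this was not so, but GPX2 was highest (51.4 CPM) where CHURC1 was lowest (23.8 CPM). Whether reads of one gene were counted for the other was not tested.

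Of the 6 genes that passed the filter, 4 were lower with methotrexate and 0 were higher at an adjusted p under 0.05 in the fit over all genes (edgeR quasi-likelihood), beside 29.1% of the 16733 tested genes lower and 35.4% higher. The same 4 were those whose methotrexate libraries all lay below the control, as in 32.9% of all tested genes. With epithelial scaling 1 of the 6 was lower (GPX2) and 2 were higher (DUOX1 and NOXA1), beside 0.562% of all tested genes lower and 75.2% higher. Since these values chose the genes, nothing is read from the counts. Over all tested genes the median fold change was 0.95 (log2) with epithelial scaling and 0.03 with TMM.

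Set among 46 brush border, junction and keratin genes of the epithelium, the group split. Those 46 genes had a median log2 fold change of -0.99 between methotrexate and control (quartiles -1.08 and -0.70), from -1.34 for KRT20 to 12.91 for MME, a peptidase that other tissues also express. NOX1 and CYBA lay in the middle of that range, with 25 and 17 of the 46 genes lower than them. DUOX2 and GPX2 lay below all 46, DUOX2 (-1.35 ± 0.23, SE) only just below KRT20. GPX2 (-1.48 ± 0.23, 95% interval -1.96 to -1) was below KRT20 by less than its SE. DUOX1 and NOXA1 lay above 40 and 41 of the 46 genes. Such ranks were not limited to methotrexate. With lactoferrin against control, 1 of the 46 was lower than DUOX2, 1 lower than GPX2, and 44 lower than each of DUOX1 and NOXA1. With both agents against control, 0 were lower than GPX2 and 44 lower than NOXA1, but 11 were lower than DUOX2 and 15 lower than DUOX1.

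**Figure D2:**
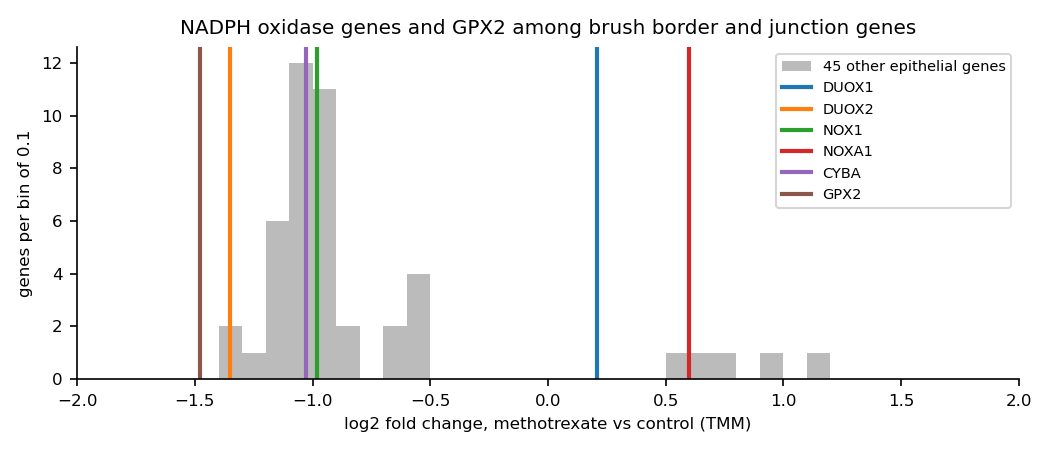
Log2 fold change of methotrexate against control (TMM) for brush border, junction and keratin genes (grey bars, number of genes per bin of 0.1) and for GPX2 and the oxidase genes that passed the filter, 6 in all (vertical lines); MME, at 12.91, is beyond the axis. NOX1 and CYBA fall in the main peak of the epithelial genes near their median of -0.99, DUOX2 at and GPX2 beyond their lowest bin, and DUOX1 and NOXA1 far to the right of the peak.

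Spheroids given both agents overlapped the control for all 6 genes that passed the filter. Against the control, NOX1 differed by 0.01 ± 0.15 (log2, SE; 95% interval -0.3 to 0.32) and DUOX2 by -0.07 ± 0.23 (-0.55 to 0.42). CYBA differed by -0.18 ± 0.22 (-0.64 to 0.28) and GPX2 by -0.23 ± 0.22 (-0.7 to 0.24). DUOX1 differed by -0.05 ± 0.36 and NOXA1 by 0.24 ± 0.3, the value for NOXA1 ranging between -0.06 and 0.78 when single libraries were left out. None of the 6 was called, beside 0.0299% of tested genes, and the intervals, where given, show the range of differences that these libraries leave possible.

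Against methotrexate alone, the same spheroids had higher levels of the 4 genes. DUOX2 was 2.43 times (log2 1.28 ± 0.23, SE), GPX2 2.38 times (1.25 ± 0.23), NOX1 1.99 times (0.99 ± 0.15) and CYBA 1.81 times (0.85 ± 0.22) the methotrexate level, and for each the 3 libraries with both agents lay above the 3 with methotrexate. NOXA1 was the other way round, with every library with both agents below every methotrexate library and a difference of -0.36 ± 0.28. Over all tested genes, 30.2% lay all above and 36.3% all below methotrexate. Of the 6 genes, 4 were called higher and 0 lower, beside 28.8% of tested genes higher and 34.4% lower. With epithelial scaling the differences were 0.37 for DUOX2, 0.36 for GPX2, 0.09 for NOX1 and -0.03 for CYBA, and only DUOX1 (-1.16) and NOXA1 (-1.26) were called, both lower, beside 0.807% of tested genes higher and 74.4% lower. This comparison and that of methotrexate against the control share the methotrexate libraries, so their values are not independent of each other.

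Lactoferrin alone gave small differences from the control. DUOX2 was at 74.7% of the control level (log2 -0.42 ± 0.23, SE; 95% interval -0.92 to 0.08) with no overlap between the libraries, and GPX2 at 73.7% (-0.44 ± 0.22; -0.91 to 0.03) with overlap. NOX1 was at 92.7% (-0.11 ± 0.15; -0.42 to 0.2) and CYBA at 97% (-0.04 ± 0.22; -0.5 to 0.41). DUOX1 was at 134% (0.42 ± 0.35) and NOXA1 at 126% (0.34 ± 0.3), the value for NOXA1 ranging between 0.03 and 0.87 when single libraries were left out. Of all tested genes 10.1% did not overlap in this comparison, and DUOX1 and DUOX2 were 2 of the 6. None of the 6 was called, beside 0% of tested genes, since edgeR called 0 of 16733 genes in this comparison and DESeq2 0 of 32921. By edgeR 628 genes had an unadjusted p under 0.05.

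With both agents against lactoferrin alone, DUOX2 differed by 0.35 ± 0.24, GPX2 by 0.21 ± 0.22, NOX1 by 0.12 ± 0.15, CYBA by -0.14 ± 0.22, NOXA1 by -0.10 ± 0.3 and DUOX1 by -0.47 ± 0.35 (log2, SE). NOX1 was the only 1 of the 6 whose libraries did not overlap, at 11.5 to 11.9 CPM with both agents and 10.6 to 10.9 CPM with lactoferrin, and 6.89% of all tested genes did not overlap there. None was called, beside 0.0179% of tested genes.

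**Figure D3:**
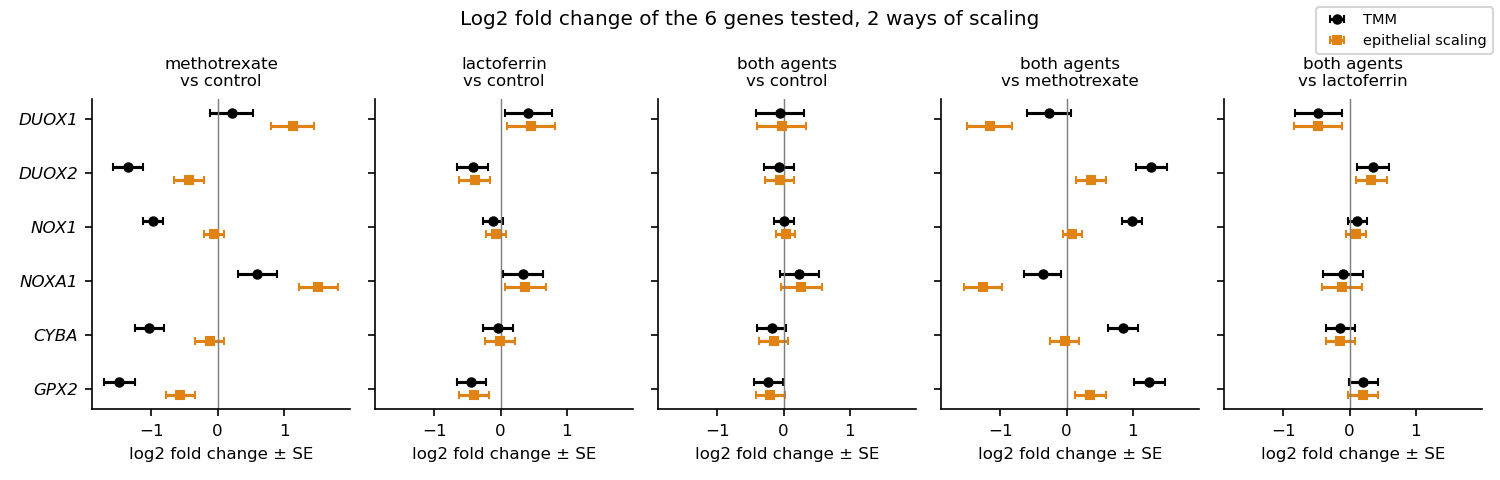
Log2 fold change ± SE of the 6 genes that passed the filter in the 5 comparisons, with TMM (black circles) and with epithelial scaling (orange squares). In both comparisons with methotrexate the squares of DUOX2, NOX1, CYBA and GPX2 lie nearer to 0 than the circles and those of DUOX1 and NOXA1 farther from it, and in the other 3 comparisons the scalings lie close together.

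The genes also varied among libraries of 1 group, and CYBA and GPX2, the shortest of the 8 genes at 1415 and 1134 bases, lay below their group mean together in 4 libraries. In the third library with both agents CYBA was -0.56 and GPX2 -0.34 from the group mean (log2), while DUOX2, at 6641 bases the longest, was 0.49 above it. Other members differed there: NOXA1, at 1678 bases, was at 0.12 and DUOX1, at 5738 bases, at -0.01. In the same library the median of 351 genes under 1200 bases was -0.18 and that of 1448 genes over 6000 bases was 0.13. In the second lactoferrin library CYBA was -0.39 and GPX2 -0.40, and the long DUOX2 was low as well at -0.18, with short genes at -0.09 and long genes at 0.04. In the third methotrexate library DUOX2, NOX1, CYBA and GPX2 were all low, at -0.26, -0.35, -0.38 and -0.33, with short genes at -0.03 and long genes at -0.04. In the first control library CYBA was -0.10 and GPX2 -0.17, with short genes at 0.03. The part of transcript length in the members' deviations was not tested, and this look at single libraries was chosen after their values were seen. With any 1 library left out, methotrexate against control stayed between -1.69 and -1.23 for GPX2, -1.55 and -1.22 for DUOX2, -1.16 and -0.87 for CYBA, and -1.10 and -0.82 for NOX1.

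**Figure D4:**
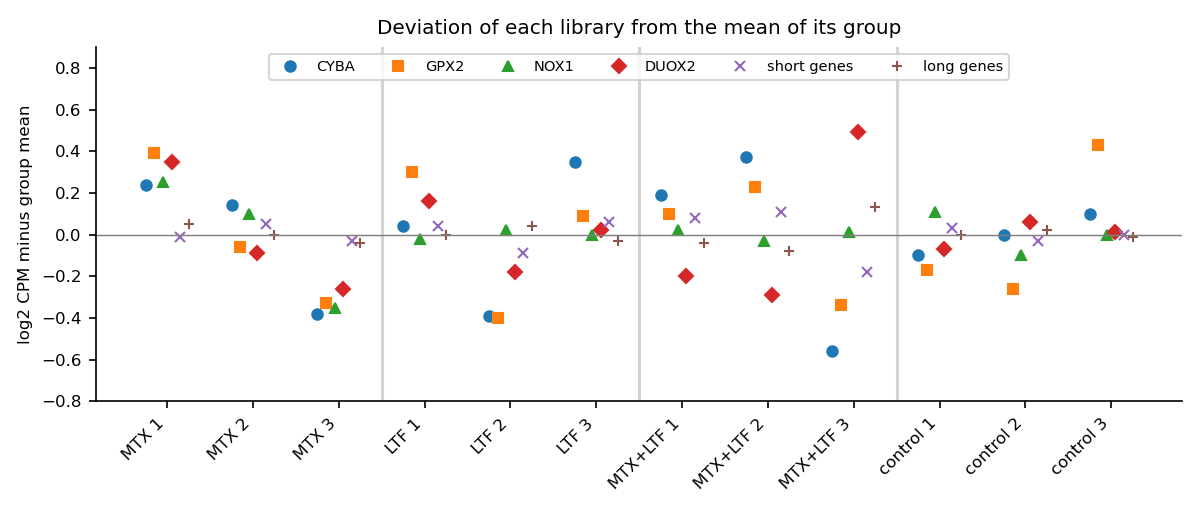
Log2 CPM of CYBA, GPX2, NOX1 and DUOX2 in each of the 12 libraries minus the mean of its own group, with the median of 351 short genes (crosses) and 1448 long genes (plus signs). In the third library with both agents CYBA (-0.56) and GPX2 (-0.34) lie below the group mean with the short genes (-0.18), and DUOX2 (0.49) lies above it with the long genes (0.13). In the second lactoferrin library DUOX2 (-0.18) lies below it and the long genes (0.04) do not.

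The sequences upstream of the genes' starts are shown for the peroxidase GPX2 and for the catalytic subunits that were lower with methotrexate, NOX1 and DUOX2 (with DUOXA2, whose start faces it). CYBA, an accessory subunit that was also lower, is given by its match alone. They come from RefSeq (GRCh38.p14), where all 8 genes matched, and each is read 5′ to 3′ on the gene's strand up to the base before the annotated start. Capitals mark matches to short motifs. In GPX2 they mark the antioxidant response element core, the site of NRF2, searched as TGACNNNGC and found on the reverse strand 122 to 114 bases upstream. In NOX1 they mark a CDX match (TTTATG, 162 to 157 bases upstream) and a GATA match (GATAAG, 100 to 95 bases upstream), motifs of factors of the intestinal epithelium. Between DUOX2 and DUOXA2 they mark a TATA box (TATAAA) 32 to 27 bases upstream of the DUOXA2 start, and 153 bases separate the starts in this annotation, whereas the gene models of the deposited hg19 table overlap by 24 bases.
GPX2, chr14:64942746-64942995, minus strand: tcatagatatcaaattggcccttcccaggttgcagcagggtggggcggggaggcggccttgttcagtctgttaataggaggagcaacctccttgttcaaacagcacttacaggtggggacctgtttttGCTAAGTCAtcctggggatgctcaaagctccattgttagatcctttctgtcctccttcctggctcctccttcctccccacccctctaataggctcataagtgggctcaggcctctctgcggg
NOX1, chrX:100874360-100874609, minus strand: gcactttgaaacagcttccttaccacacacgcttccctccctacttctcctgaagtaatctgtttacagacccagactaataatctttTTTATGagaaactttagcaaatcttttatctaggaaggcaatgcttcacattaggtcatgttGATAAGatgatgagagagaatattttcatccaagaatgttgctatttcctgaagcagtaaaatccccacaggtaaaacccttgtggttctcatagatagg
DUOX2 to DUOXA2, chr15:45114173-45114325, plus strand: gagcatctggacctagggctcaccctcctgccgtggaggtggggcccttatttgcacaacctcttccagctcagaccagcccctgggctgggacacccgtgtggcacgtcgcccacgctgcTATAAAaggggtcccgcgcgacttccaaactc

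Both strands of the 250 bases before each start were searched. The antioxidant response element core occurs in 10.9% of 35116 promoters of the same length, and among the 8 genes only GPX2 has it. CDX occurs in 9.64% and GATA in 5.65% of promoters, and among the 8 each is found only for NOX1. TCF/LEF (CTTTGAT, 2.26% of promoters) was found for NOXO1 and kappa B (GGGNNTTCC, 5.78%) for CYBA. The TATA box (10.7%) was found for both DUOX2 and DUOXA2, and it is the same 6 bases, on opposite strands. HNF4 (CAAAGTCCA, 0.325%) matched none of the 8. No matches of different motifs overlapped, and a match describes only these letters.

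The genes whose level across the 12 libraries was most like that of the members were, for NOX1, SPOP (Pearson r 0.995), CSTF1 (0.993) and KIF2C (0.99). For DUOX2 they were LIPG (0.968), NFYA (0.966) and C7orf31 (0.966), and for GPX2 CLN6 (0.981), SLC5A6 (0.981) and DDX39A (0.98), each of 12476 candidates. These values are a description over libraries that share the 4 groups. All 9 genes had their lowest group mean with methotrexate, as in SPOP at 67.7 CPM with methotrexate, 112 CPM with lactoferrin, 117 CPM with both agents and 115 CPM in the control.

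Other genes of the same chemistry were taken from 4 lists by role, 76 genes in all, of which 66 were tested. Between methotrexate and control 27 rose, 21 fell and 18 did not pass the test (median log2 fold change 0.11, against 0.03 over all genes). That is 40.9% higher and 31.8% lower, beside 35.4% and 29.1% of all tested genes. With epithelial scaling 55 rose and 0 fell (83.3% and 0%, beside 75.2% and 0.562% of all tested genes), with a median of 1.03 against 0.95 over all genes. The counts of the single lists below stand against the same shares. The lists were written with earlier results of these data known, and the adipocyte and fibroblast markers given above moved with the same libraries.

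Of 15 other oxidase components 8 were tested, and 5 rose, 2 fell and 1 did not pass (median 0.87), while with epithelial scaling all 8 rose (median 1.8). SH3PXD2A and SH3PXD2B, scaffolds related to NOXO1 that can organize NOX1, both rose. SH3PXD2A had 500 ± 27.2 CPM with methotrexate and 48.1 ± 3.63 CPM in the control (SD, n = 3 each), a log2 fold change of 3.38 ± 0.10 (SE; adjusted p = 7.12e-14, edgeR quasi-likelihood). SH3PXD2B had 81.4 ± 10.4 CPM with methotrexate and 28.5 ± 3.64 CPM in the control (1.51 ± 0.13; adjusted p = 3.43e-08). POLDIP2, a partner of NOX4, fell with TMM (-0.53 ± 0.13; adjusted p = 0.00221) and rose with epithelial scaling (0.39; adjusted p = 0.0178). NOX4, an oxidase that needs CYBA but no cytosolic activator, had 123 counts with methotrexate and 5 in the control (3.52 ± 0.60; adjusted p = 8.66e-05). RAC1, the GTPase of the NOX1 complex, rose, at 281 CPM with methotrexate and 238 CPM in the control (0.24 ± 0.08; adjusted p = 0.0189), and by 1.16 with epithelial scaling (adjusted p = 2.05e-09). The phagocyte oxidase CYBB had 8 counts with methotrexate and 11 in the control, too few to test. Scaled for depth this was 0.0574 ± 0.0177 CPM with methotrexate and 0.164 ± 0.108 CPM in the control (SD), with all methotrexate libraries below the control ones. NOX4, RAC1 and CYBB were singled out after their values were seen.

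Of 26 genes that remove superoxide or peroxide 24 were tested, and 13 rose, 5 fell and 6 did not pass (median 0.41), while with epithelial scaling 23 rose and 0 fell (median 1.33). The largest changes among genes averaging a log2 CPM of 1 or more were those of SOD3, GPX8 and SOD2. SOD3, the extracellular superoxide dismutase, had 156 ± 5.13 CPM with methotrexate and 3.46 ± 1.96 CPM in the control (log2 5.47 ± 0.32, SE; adjusted p = 4.03e-10, edgeR). GPX8, a peroxidase of the endoplasmic reticulum, had 25.7 ± 1.99 CPM with methotrexate and 0.826 ± 0.195 CPM in the control (4.94 ± 0.29; adjusted p = 4.05e-10). SOD2, the mitochondrial dismutase, had 1080 ± 128 CPM with methotrexate and 186 ± 12.2 CPM in the control (2.53 ± 0.10; adjusted p = 2.8e-12).

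Within the glutathione peroxidases, the lower mean of GPX2 with methotrexate had its like in GPX3 and GPX7 and not in GPX1, GPX4 or GPX8. GPX1, its cytosolic relative, had 287 ± 20.9 CPM with methotrexate and 188 ± 14.1 CPM in the control (0.61 ± 0.13; adjusted p = 0.00092), and GPX4, which reduces membrane lipid peroxides, had 942 ± 51.5 CPM with methotrexate and 325 ± 42.3 CPM in the control (1.54 ± 0.13; adjusted p = 4.9e-08). GPX3, the secreted form, fell with TMM, at 68 ± 1.65 CPM with methotrexate and 125 ± 6.67 CPM in the control (-0.88 ± 0.10; adjusted p = 7.53e-07), and was at 0.05 with epithelial scaling (adjusted p = 0.654). GPX7 also fell with TMM (-0.34 ± 0.13; adjusted p = 0.0317) and rose with epithelial scaling (0.58; adjusted p = 0.000686), and GPX5 and GPX6 were listed at 0 in both these groups. The other family members were singled out because GPX2 belongs to them, after their values were seen.

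**Figure D5:**
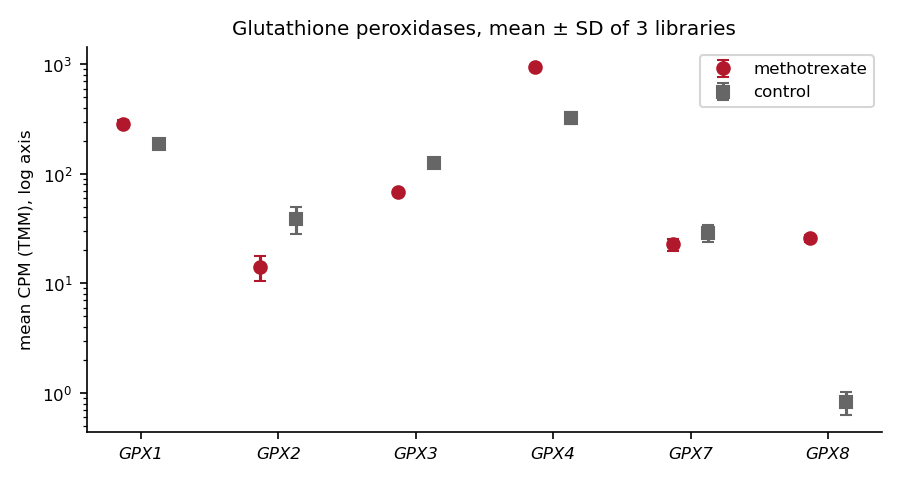
Mean level ± SD of 3 libraries (CPM with TMM, log axis) of 6 glutathione peroxidases with methotrexate (red circles) and in the control (grey squares). GPX2, GPX3 and GPX7 have lower means with methotrexate, and GPX1, GPX4 and GPX8 higher ones, and GPX2 averages 14.1 CPM with methotrexate and 39 CPM in the control.

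GPX2 carries selenocysteine, and of 21 genes for other selenoproteins and selenium handling 20 were tested: 5 rose, 8 fell and 7 did not pass (median -0.12), while with epithelial scaling 15 rose and 0 fell (median 0.8). DIO2, a thyroid hormone deiodinase, had 2292 counts with methotrexate and 0 in the control, at least 372-fold higher when the control is set at 3 counts over the group. SELM, an endoplasmic reticulum selenoprotein, had 48.5 ± 2.65 CPM with methotrexate and 0.403 ± 0.316 CPM in the control (6.89 ± 0.28; adjusted p = 3.59e-12, edgeR). SEPSECS, the enzyme that makes selenocysteine on its tRNA, had 15.9 ± 1.35 CPM with methotrexate and 5.55 ± 0.963 CPM in the control (1.52 ± 0.19; adjusted p = 3.81e-06).

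Among 14 genes listed as possible regulators, 4 rose, 6 fell and 4 did not pass (median -0.22), and with epithelial scaling 9 rose and 0 fell (median 0.7). Whether they act on the promoters of the members was not tested. STAT3, which acts downstream of cytokines, had 344 ± 21.2 CPM with methotrexate and 77.2 ± 1.52 CPM in the control (2.16 ± 0.09; adjusted p = 4.46e-12). The intestinal factor CDX2 had 109 ± 53.4 CPM with methotrexate and 253 ± 11.7 CPM in the control (-1.21 ± 0.26; adjusted p = 0.00073). CDX2 had 139, 141 and 47.4 CPM in methotrexate libraries 1, 2 and 3, and NOX1, DUOX2, CYBA and GPX2 were all low in library 3. HNF4A, also on this list, was lowest in library 3 as well, at 373, 361 and 255 CPM in the same order. A low level in that library was thus not particular to CDX2, and a link between CDX2 and the members was not tested. With epithelial scaling CDX2 was no longer called, at -0.30 (adjusted p = 0.294). NFE2L2, the gene of NRF2, whose motif stands in the GPX2 promoter, had 93.3 ± 0.546 CPM with methotrexate and 75.9 ± 3.54 CPM in the control (0.30 ± 0.12, adjusted p = 0.0467 by edgeR). With epithelial scaling its difference was 1.22 (adjusted p = 1.12e-07, edgeR). NFE2L2 was singled out after its values were seen.

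With both agents against methotrexate, 18 of the 66 related genes rose, 28 fell and 20 did not pass (median -0.22), which is 27.3% higher and 42.4% lower, beside 28.8% and 34.4% of all tested genes. With epithelial scaling 0 rose and 56 fell (84.8% lower, beside 74.4%). Those that fell included SH3PXD2A (log2 -3.38; adjusted p = 7.35e-14), SH3PXD2B (-1.56; adjusted p = 2.49e-08), SOD3 (-5.54; adjusted p = 3.99e-10), GPX8 (-5.27; adjusted p = 2.99e-10) and SOD2 (-2.54; adjusted p = 2.77e-12), all by edgeR. POLDIP2 rose with TMM (0.38; adjusted p = 0.0193) and fell with epithelial scaling (-0.52; adjusted p = 0.00315). SELM (-6.93; adjusted p = 3.91e-12), LRP8, a receptor for selenoprotein P (-1.31; adjusted p = 2.25e-06) and STAT3 (-2.16; adjusted p = 4.58e-12) fell as well. DIO2 had 3 counts with both agents and 2292 with methotrexate, and the methotrexate level was 354 times that with both agents (95% counting interval 121 to 1720). CDX2 rose by 1.25 (adjusted p = 0.000593) and did not pass with epithelial scaling (0.36; adjusted p = 0.215). No related gene was called with lactoferrin or both agents against the control, or with both agents against lactoferrin (edgeR; 2, 0 and 1 of the 66 at an unadjusted p under 0.05, and 0 called in each by DESeq2).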

How the data were processed

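RNA was sequenced from 12 Caco-2 spheroid samples, 3 in each of 4 groups. The authors deposited 1 table of raw read counts per gene with coordinates and gene lengths, whose unit was checked against its values (whole numbers, with a different total in each column). CASAVA, STAR, DESeq2 and the build hg19 are named per the submitters' processing notes. Not given in the sources used here were their roles and versions, the annotation, the counting program and its use of strand.

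From these counts edgeR 4.0.16 in R 4.3.3 was run on all 12 libraries with 1 mean per group, TMM factors, filterByExpr and the quasi-likelihood test, with Benjamini-Hochberg adjustment over 16733 genes and calls at an adjusted p under 0.05. The table lists 48162 genes, of which 15233 had no count. The biological coefficient of variation was 12.9%. CPM values use TMM library sizes unless epithelial scaling is named, which takes the median ratio of 45 of 47 listed brush border, junction and keratin genes. Exceptions are the NOXO1 levels given with Poisson limits and the CPM limits at 3 counts, which use plain library totals. No libraries of 1 group agreed within counting noise, so none were merged, which does not show that they were separate cultures. The fit was first run on simulated data in which all groups had the gene proportions of the control, apart from a small set of changed genes. A shift in content like that of the methotrexate libraries was not simulated, so the run does not bear on it.

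The members and all gene lists were chosen with earlier results of these data known, and epithelial scaling was taken up for the same reason. Named related genes are up to 3 called genes per list and comparison, those that changed most and averaged a log2 CPM of 1 or more. Genes of similar pattern are the 3 with the highest Pearson r of log2 CPM (prior count 2) over 12 libraries. Alternatives were relative log expression factors, epithelial scaling, DESeq2 1.42.0, no filter, a replicate block, a fit of the compared groups only, a 2-fold change at an adjusted p under 0.01, and leaving out each library. Promoter sequences came from RefSeq tables. SEP15, PECAM1 and PATJ were not analysed here, and of repeated symbols the entry with more counts was used. An item that the naming rule picks is not reported here.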

Additional observations from a re-analysis of the deposited data

How the results depend on the processing

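For methotrexate against control, 4 of the 6 tested members were called in the reported fit (64.5% of all tested genes) and with relative log expression factors (64%), and 4 of 7 with DESeq2 (46.8%) and in a fit of the compared groups only (66.2%). They were 5 of 8 with no filter (36%), 5 of 6 with the replicate block (62%), 3 of 6 with epithelial scaling (75.8%) and 3 of 6 at a 2-fold change with an adjusted p under 0.01 (27%), and 4 to 5 with single libraries left out (5 without control library 2). For both agents against methotrexate 4 of 6 were called (63.2% of all genes), against 2 with epithelial scaling (75.2%), 2 at the stricter threshold (26.3%), and 4 in every fit without 1 library. Epithelial scaling moved the member values in both comparisons with methotrexate as given above, and it turned CYBA to -0.03 and POLDIP2 to -0.52 for both agents against methotrexate and POLDIP2 to 0.39 for methotrexate against control. By its construction it takes the epithelial genes as level.

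At the stricter threshold 4525 genes were called between methotrexate and control and 4400 between both agents and methotrexate, with 21 related genes in each. Without 1 library these counts ran between 9984 and 11481 and between 9781 and 10895, and those of related genes between 41 and 50 and between 41 and 48. POLDIP2 lost its call for both agents against methotrexate without library 1 (0.33) or 2 (0.28) of both agents or methotrexate library 3 (0.31). For lactoferrin against control 0 genes were called, 17 with no filter and 0 to 0 without 1 library. For both agents against control 5 were called (AKAP12, FBN2, LGALS1, MSN and VIM; 591 at an unadjusted p under 0.05), 10 with DESeq2, 38 with no filter, 3 with the replicate block, 0 in a fit of the compared groups only, 2 at the stricter threshold, and 0 to 8 without 1 library (0 without control library 2, 3 without control library 1 or library 1 of both agents, 8 without library 3 of both agents). For both agents against lactoferrin 3 were called (LGALS1, MSN and VIM; 564 unadjusted), 7 with DESeq2, 19 with no filter, 0 in a fit of the compared groups only, and 0 to 5 without 1 library (0 without lactoferrin library 3, 5 without library 3 of both agents). No member and no related gene was called in these 3 comparisons in any of the fits run. The cause of these shifts was not tested.

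For libraries of different groups with the same replicate number, the deviations from the group mean (not the levels) correlated between -0.22 and 0.12. Of 18 such pairs 2 were over 0.1, so the numbers were not used as pairs. The depth limits NOXO1 and DUOXA2: a level of 3 counts in a library is 0.0495 to 0.16 CPM.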
